A study of Mus musculus with 8 samples.

Results

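Fibroblast growth factors (FGFs) and their receptors were followed in the mouse uterus through the estrous cycle. The set was chosen by name and holds the ligand genes Fgf1, Fgf2, Fgf7, Fgf9, Fgf10 and Fgf18 and the 4 receptor genes Fgfr1, Fgfr2, Fgfr3 and Fgfr4. All 10 genes were found among the 52308 genes of the count table, and all 10 were among the 18114 that passed the filter on low counts. The study sequenced polyadenylated RNA of whole uterus from female ICR mice, an outbred stock, aged 6 to 8 weeks and carrying no engineered allele or treatment in the labels. Stages were read from vaginal smears, and proestrus, estrus, metestrus and diestrus had 2 libraries each, 8 in all. The labels do not say whether the libraries of a stage came from separate animals. The p-values set stage differences against the spread between these libraries only, and that spread may be technical.

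FGF ligands are secreted proteins that bind receptor tyrosine kinases together with heparan sulfate and signal through the RAS and ERK cascade. Receptors occur in splice forms that bind different ligands. Fgf7 and Fgf10 act mainly on the epithelial form of Fgfr2, whereas Fgf1 binds all forms. In the mouse uterus stromal FGFs act on the epithelium, and the stromal transcription factor Hand2, which is induced by progesterone, is known to hold several of them down before implantation.

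Library totals lay between 17863546 and 21896786 counts. Levels below are CPM, counts scaled to library size with a correction for composition. The 10 markers of uterine stroma summed to between 9710 and 25684 CPM and the 10 markers of smooth muscle to between 7389 and 18292 CPM, so the labelled tissue carried its own markers in every library. The 10 epithelial markers summed to 5393 and 4408 CPM in proestrus, 4218 and 3526 CPM in estrus, 1333 and 1258 CPM in metestrus and 915 and 1378 CPM in diestrus. The 7 immune markers reached 470 and 507 CPM in estrus, against 116 to 186 CPM in the other libraries. The 4 liver markers summed to 761 and 576 CPM in estrus, to 98.4 and 0.943 CPM in proestrus, and to at most 3.33 CPM in metestrus and diestrus. No list had a marker at 0 in all libraries. The diestrus libraries stood apart from each other: smooth muscle markers summed to 18292 CPM in library 1 and 7389 in library 2, and the 4 mesothelial markers to 74.6 and 15.3 CPM. In bulk tissue, fewer cells of a type and less RNA per cell cannot be told apart.

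Promoters are shown for 3 members, Fgfr2 and the ligands Fgf7 and Fgf10 of its epithelial form. Both ligands were higher in diestrus library 1 than in library 2, as were other members, Fgf9 among them. The windows are the 250 bases before the annotated start in RefSeq GRCm38.p6, 5′ to 3′ on the gene's strand, and hold no exon base. The Fgf10 start of RefSeq lies inside the span that GENCODE gives this gene. Capitals mark matches, on either strand, to the estrogen response element half-site GGTCA, the AP-1 site TGANTCA, the GC box GGGCGG or the progesterone response element half-site AGAACA. None of the marked matches overlaps another.
Fgf7, chr2:126034408-126034657, plus strand: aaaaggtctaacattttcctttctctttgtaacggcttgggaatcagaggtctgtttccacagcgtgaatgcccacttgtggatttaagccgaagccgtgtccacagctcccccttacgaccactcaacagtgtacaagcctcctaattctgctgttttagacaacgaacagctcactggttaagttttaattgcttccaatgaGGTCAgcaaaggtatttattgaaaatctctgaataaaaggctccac
Fgf10, chr13:118714449-118714698, plus strand: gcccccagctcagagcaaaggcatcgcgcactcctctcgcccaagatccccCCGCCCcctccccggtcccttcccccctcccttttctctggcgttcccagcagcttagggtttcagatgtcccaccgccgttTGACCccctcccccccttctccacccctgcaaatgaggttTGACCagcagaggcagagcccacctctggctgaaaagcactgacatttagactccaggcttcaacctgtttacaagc
Fgfr2, chr7:130266809-130267058, minus strand: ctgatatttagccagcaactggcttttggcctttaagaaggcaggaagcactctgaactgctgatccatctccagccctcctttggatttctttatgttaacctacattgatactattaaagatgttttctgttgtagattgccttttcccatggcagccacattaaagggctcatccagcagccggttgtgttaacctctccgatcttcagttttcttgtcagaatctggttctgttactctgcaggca
The Fgf7 window held 1 estrogen half-site, the Fgf10 window held 2 with 1 GC box, and the Fgfr2 window held none of the 4 motifs. Windows of Fgf9 and Fgf18, not shown, were also free of exon bases. No window was read for Fgf1 or Fgfr1. Fgf9 held none of the 4 motifs and Fgf18 held 1 GC box only. Of 32851 promoters with windows of the same length, 35.2% held the estrogen half-site, 32.7% the GC box, 16.1% the progesterone half-site and 6.75% the AP-1 site. These are matches of letters, not sites of binding.

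Per kilobase of exon, the receptors Fgfr1 and Fgfr2 were the most abundant members, at 11.8 and 9.42 CPM per kb over all libraries. Fgf2 at 3.95 CPM per kb was the most abundant ligand, followed by Fgf1 at 2.74, Fgf10 at 2.69, Fgf18 at 1.81 and Fgf7 at 1.61 CPM per kb. Fgfr3 at 0.911, Fgfr4 at 0.700 and Fgf9 at 0.511 CPM per kb were the lowest. This order over all libraries did not hold in each library. Fgfr1 ranked above Fgfr2 in 5 libraries and below it in both estrus libraries and diestrus library 2. Fgf2 ranked 2 to 5, behind another ligand in estrus library 1, metestrus library 2 and both diestrus libraries. Fgf18 ranked 3 in estrus library 1 and 10 in diestrus library 1, and Fgf7 ranked 4 to 9. The order over all libraries was the same when the length of the longest coding transcript was used.

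Tested across the stages with edgeR's quasi-likelihood test, 3 of the 10 members changed, Fgf1, Fgf2 and Fgfr2. Of all genes tested, 39.1% changed, so the set's share was not above the background. Fgf2 was low in estrus and diestrus, Fgf1 was high in metestrus, and Fgfr2 was high in estrus and diestrus.

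**Figure D1:**
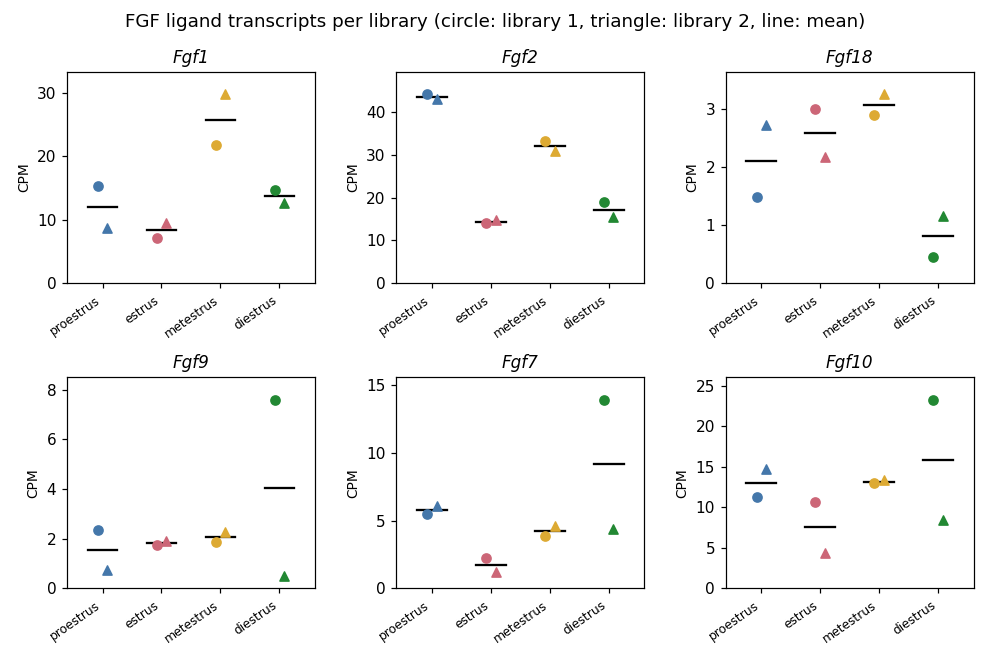
Levels of the 6 ligand genes in CPM (y axis, linear, from 0) in the libraries of proestrus, estrus, metestrus and diestrus (x axis). Circles are library 1, triangles library 2 and lines the mean of a stage. The Fgf2 points of proestrus, 44.2 and 43.0 CPM, lie above those of estrus, 14.0 and 14.7 CPM, and diestrus library 1 lies high for Fgf7, Fgf9 and Fgf10.

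Among the ligands, Fgf2 had the clearest course. Fgf2, a growth factor of stroma and vessels, lies on chromosome 3 at 37348346 to 37410108, plus strand, in the build GRCm38 (ENSMUSG00000037225). It had 44.2 and 43.0 CPM in proestrus, 14.0 and 14.7 CPM in estrus, 33.4 and 31.0 CPM in metestrus and 18.9 and 15.4 CPM in diestrus (adjusted p across stages 0.00192). No pair of stages overlapped, and the libraries of a stage lay close together. Estrus averaged 14.3 ± 0.498 CPM against 43.6 ± 0.829 CPM in proestrus (SD, n = 2 each), a log2 fold change of -1.61 ± 0.14 (SE, adjusted p = 0.00312). Metestrus was higher than estrus by 1.17 ± 0.14 on the log2 scale (adjusted p = 0.00277), and proestrus was higher than diestrus by 1.34 ± 0.14 (adjusted p = 0.00238). The calls across stages and in these 3 pairs held under every alternative, leaving out each library included. Estrus against diestrus differed by -0.26 on the log2 scale, with a 95% interval of -0.59 to 0.07 (adjusted p = 0.214). Diestrus was lower than metestrus by 0.91 ± 0.14 on the log2 scale but missed the threshold (adjusted p = 0.0581). It passed under 4 of 14 alternatives. With all libraries DESeq2, run as an alternative, gave an adjusted p of 7.3e-05 and edgeR without the filter 0.0248. The log2 fold changes without diestrus library 1 and library 2, which also passed, were -1.07 and -0.76. Metestrus against proestrus differed by -0.44 (adjusted p = 0.0712) and passed under 3 of 14 alternatives. With only the 4 libraries of the pair the adjusted p was 0.0403. The log2 fold changes without diestrus library 1 and library 2, which also passed, were -0.41 and -0.44. Exons of Nudt6, the gene on the opposite strand, share 640 bases (9.44%) of the Fgf2 exons. The strand setting of the counting is not given in the sources used here, so reads in that stretch cannot be told apart. In estrus, where Fgf2 was low, the stromal markers summed to 14613 and 9710 CPM, against 21541 and 25684 CPM in proestrus. Of the 10 markers 3 were called lower in estrus and 1 higher, with a median log2 fold change of -0.0147. The markers summed to 18498 and 17486 CPM in diestrus, where Fgf2 was also low, and to 22439 and 15583 CPM in metestrus. Their part in the result was not tested. Nudt6 itself had 0.929 to 2.32 CPM and did not pass the test across stages (adjusted p = 0.299).

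Fgf1, which binds every receptor form, was highest in metestrus. The gene (ENSMUSG00000036585) lies on the minus strand of chromosome 18 at 38838673 to 38929472. It had 15.3 and 8.73 CPM in proestrus, 7.15 and 9.45 CPM in estrus, 21.8 and 29.8 CPM in metestrus and 14.8 and 12.6 CPM in diestrus (adjusted p across stages 0.0259). Both metestrus libraries lay above all others, and proestrus overlapped estrus and diestrus. Metestrus averaged 25.8 ± 5.65 CPM against 8.30 ± 1.62 CPM in estrus (SD, n = 2 each), a log2 fold change of 1.63 ± 0.32 (adjusted p = 0.0102). This call was lost without estrus library 1 (adjusted p = 0.0706) or metestrus library 2 (0.0666), and the call across stages without either estrus library (0.0901 and 0.0656) or either metestrus library (0.064 and 0.134). Metestrus against proestrus was 1.10 ± 0.31 (adjusted p = 0.0554) and passed under 5 of 14 alternatives. DESeq2 gave an adjusted p of 0.0107, edgeR without the filter 0.0272 and the 4 libraries of the pair alone 0.0494. The log2 fold changes without diestrus library 1 and library 2, which also passed, were 1.13 and 1.10.

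Fgf7, the keratinocyte growth factor, and Fgf10, its close relative in branching epithelia, differed widely between the diestrus libraries. Fgf7 (ENSMUSG00000027208, chromosome 2, 126034658 to 126091185, plus strand) had 5.49 and 6.10 CPM in proestrus, 2.25 and 1.19 CPM in estrus, 3.88 and 4.62 CPM in metestrus and 13.9 and 4.39 CPM in diestrus. Both estrus libraries lay below all others, on 45 and 23 counts. Estrus averaged 1.72 ± 0.752 CPM and diestrus 9.17 ± 6.76 CPM (SD, n = 2 each), and estrus was lower by a log2 fold change of -2.41 ± 0.58 (adjusted p = 0.0283). That call was lost without estrus library 1 (adjusted p = 0.0827), estrus library 2 (0.14), metestrus library 1 (0.0574) or metestrus library 2 (0.0576), and with only the 4 libraries of the pair (0.107). Estrus against proestrus was -1.75 ± 0.58 (adjusted p = 0.0861) with all libraries and passed under 5 of 14 alternatives. DESeq2 gave an adjusted p of 0.0247, edgeR without the filter 0.0385 and the 4 libraries of the pair alone 0.0391. The log2 fold changes without diestrus library 1 and library 2, which also passed, were -1.76 and -1.75. Across stages the adjusted p was 0.0607, and Fgf7 passed under 4 of 13 alternatives. With all libraries DESeq2 gave 0.0052 and edgeR without the filter 0.0157. It also passed without diestrus library 1 or library 2. Metestrus against estrus was 1.30 ± 0.57 (adjusted p = 0.12) and passed under 3 of 14 alternatives. With only the 4 libraries of the pair the adjusted p was 0.0331. The log2 fold changes without diestrus library 1 and library 2, which also passed, were 1.34 and 1.30. Without diestrus library 2, diestrus against metestrus had an adjusted p of 0.0373 and proestrus against diestrus one of 0.0497, against 0.331 and 0.421 with all libraries.

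Fgf10 (ENSMUSG00000021732, chromosome 13, 118669791 to 118792115, plus strand) had 11.3 and 14.7 CPM in proestrus, 10.7 and 4.39 CPM in estrus, 12.9 and 13.4 CPM in metestrus and 23.3 and 8.42 CPM in diestrus. Both estrus libraries lay below those of proestrus and metestrus, the diestrus libraries lay on either side of these, and no comparison passed the test (adjusted p across stages 0.421). Estrus against diestrus differed by -1.07 ± 0.56 on the log2 scale (adjusted p = 0.206, and 0.0465 without diestrus library 2). The library with the high Fgf7 and Fgf10 levels was diestrus library 1, which also had the highest smooth muscle and mesothelial sums of all libraries, 18292 and 74.6 CPM. The part of these cells in the result was not tested.

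Fgf9, a ligand of the mesenchymal receptor forms, lies at 58070547 to 58112720 of chromosome 14, plus strand (ENSMUSG00000021974). It had 2.36 and 0.744 CPM in proestrus, 1.75 and 1.91 CPM in estrus, 1.87 and 2.27 CPM in metestrus and 7.60 and 0.504 CPM in diestrus. The highest and the lowest library were both from diestrus, with 169 and 10 counts, and Fgf9 did not pass the test across stages (adjusted p = 0.616). Without diestrus library 2 the adjusted p across stages was 0.0406, that of estrus against diestrus 0.0474 and that of proestrus against diestrus 0.0338, each resting on the single diestrus library left. The high library is again the one with the highest mesothelial and smooth muscle sums, whose part was not tested.

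Fgf18, known for its action on cartilage and bone and among the stromal FGFs held down by Hand2 in the mouse uterus, had its lowest libraries in diestrus. The gene (ENSMUSG00000057967) lies on chromosome 11 at 33117430 to 33147400, minus strand. Its levels were 1.49 and 2.73 CPM in proestrus, 3.001 and 2.17 CPM in estrus, 2.90 and 3.25 CPM in metestrus and 0.450 and 1.16 CPM in diestrus. Both diestrus libraries, with 10 and 23 counts, lay below all others, yet no comparison passed the test. Estrus against diestrus had a log2 fold change of 1.69 ± 0.52 (adjusted p = 0.059), diestrus against metestrus one of -1.94 ± 0.52 (adjusted p = 0.165) and proestrus against diestrus one of 1.39 ± 0.52 (adjusted p = 0.104). Without diestrus library 2 these log2 fold changes were 2.51, -2.76 and 2.21, each resting on diestrus library 1 alone, with its 10 counts. Across stages the adjusted p was 0.0821 with all libraries. DESeq2, run as an alternative, gave 0.0363 for estrus against diestrus and 0.0393 for diestrus against metestrus.

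**Figure D2:**
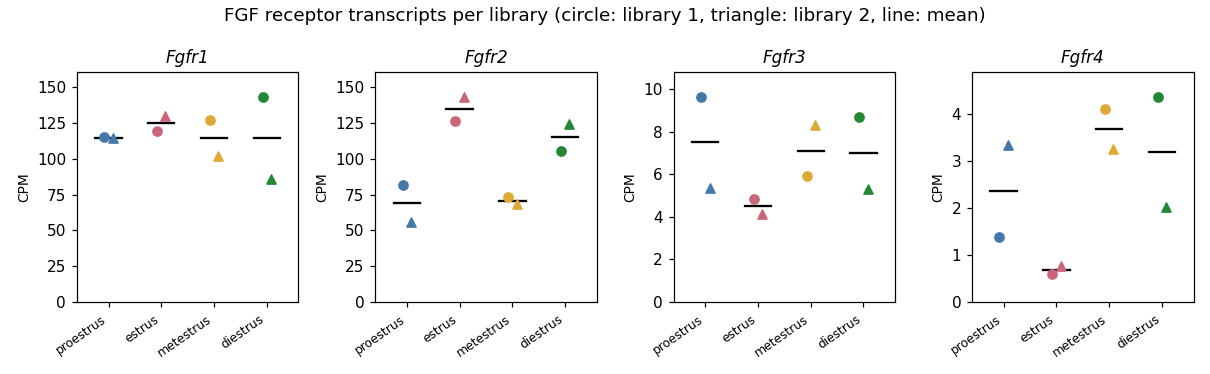
Levels of the 4 receptor genes in CPM (y axis, linear, from 0) in the libraries of proestrus, estrus, metestrus and diestrus (x axis). Circles are library 1, triangles library 2 and lines the mean of a stage. Fgfr2 reaches 126 and 143 CPM in estrus and Fgfr4 lies at 0.600 and 0.774 CPM there.

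Of the receptors, Fgfr2 was high in estrus and diestrus and low in proestrus and metestrus. Fgfr2 carries the epithelial form that answers Fgf7 and Fgf10 as well as a mesenchymal form, which gene counts cannot separate. RefSeq places it on chromosome 7 at 130162451 to 130266808, minus strand (ENSMUSG00000030849). It had 81.9 and 55.9 CPM in proestrus, 126 and 143 CPM in estrus, 73.3 and 68.1 CPM in metestrus and 105 and 124 CPM in diestrus (adjusted p across stages 0.0179). Both estrus libraries lay above all others, and every diestrus library lay above those of proestrus and metestrus. Estrus averaged 135 ± 12.1 CPM against 68.9 ± 18.4 CPM in proestrus (SD, n = 2 each), a log2 fold change of 0.97 ± 0.20 (adjusted p = 0.0241). Metestrus was lower than estrus by a log2 fold change of -0.93 ± 0.20 (adjusted p = 0.0131), and proestrus was lower than diestrus by one of -0.74 ± 0.19 (adjusted p = 0.0387). The 10 epithelial markers summed to 4218 and 3526 CPM in estrus against 5393 and 4408 CPM in proestrus, to 1333 and 1258 CPM in metestrus against 4218 and 3526 CPM in estrus, and to 5393 and 4408 CPM in proestrus against 915 and 1378 CPM in diestrus. The 7 immune markers summed to 470 and 507 CPM in estrus, against 179 and 116 CPM in proestrus. The part of either list in the Fgfr2 differences was not tested. Estrus and diestrus differed by 0.23 on the log2 scale, with a 95% interval of -0.23 to 0.69 (adjusted p = 0.422).

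None of these Fgfr2 calls held with every library left out in turn. Across stages the call was lost without estrus library 1 or 2 (adjusted p = 0.0576 and 0.0703) or metestrus library 1 or 2 (0.0583 and 0.065). Estrus against proestrus was lost without proestrus library 2 (0.092), estrus library 1 (0.0903), estrus library 2 (0.112), metestrus library 1 (0.0555) or metestrus library 2 (0.0553). Metestrus against estrus was lost without estrus library 2 (0.067), metestrus library 1 (0.0632) or metestrus library 2 (0.085). Proestrus against diestrus was lost without proestrus library 2 (0.125), estrus library 1 (0.0659), estrus library 2 (0.0665), metestrus library 1 (0.0738), metestrus library 2 (0.0737) or diestrus library 2 (0.0907), and with only the 4 libraries of the pair (0.138). The direction did not turn in any of these. In the GENCODE annotation Fgfr2 and Ctbp2, a gene on the same strand, share 314 exon bases (3.04% of the Fgfr2 exons). Ctbp2 had 78.2 to 105 CPM, and reads in the shared stretch cannot be told apart.

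Fgfr1, the receptor typical of mesenchymal cells, did not pass the test in any comparison. It lies at 25513654 to 25575718 of chromosome 8, plus strand (ENSMUSG00000031565), and had 115 and 114 CPM in proestrus, 119 and 130.04 CPM in estrus, 127 and 102 CPM in metestrus and 143 and 85.7 CPM in diestrus. The highest and the lowest library both came from diestrus, whose range covered all others. Across stages the adjusted p was 0.947, and estrus against proestrus differed by 0.12 on the log2 scale with a 95% interval of -0.45 to 0.69.

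Fgfr3 and Fgfr4 were scarcer. Fgfr3, known for restraining bone growth, lies on chromosome 5 at 33721674 to 33737068, plus strand (ENSMUSG00000054252). It had 9.64 and 5.36 CPM in proestrus, 4.85 and 4.13 CPM in estrus, 5.89 and 8.30 CPM in metestrus and 8.68 and 5.30 CPM in diestrus. Both estrus libraries lay below the others, but no comparison passed the test (adjusted p across stages 0.376). Estrus against proestrus had a log2 fold change of -0.74 ± 0.39 (adjusted p = 0.231). G630022F23Rik, a gene on the opposite strand, shares 998 exon bases (13.9%) with Fgfr3 and had at most 0.0900 CPM.

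Fgfr4, best known as the receptor for hormone-like FGFs in liver, was lowest in estrus. It lies on chromosome 13 at 55152640 to 55168759, plus strand (ENSMUSG00000005320). Its levels were 1.38 and 3.33 CPM in proestrus, 0.600 and 0.774 CPM in estrus, 4.11 and 3.25 CPM in metestrus and 4.36 and 2.02 CPM in diestrus. The estrus libraries, with 12 and 15 counts, lay below all others. The liver marker sum was highest in estrus, and the part of such tissue in the Fgfr4 levels was not tested. Metestrus was higher than estrus by 2.41 ± 0.57 on the log2 scale (adjusted p = 0.0193), and estrus was lower than diestrus by a log2 fold change of -2.21 ± 0.57 (adjusted p = 0.0349). Metestrus against estrus was no longer called without estrus library 1 (adjusted p = 0.11), estrus library 2 (0.0782), metestrus library 1 (0.0834) or metestrus library 2 (0.0672). Estrus against diestrus was lost without estrus library 1 (0.17), estrus library 2 (0.123), metestrus library 1 (0.0661), metestrus library 2 (0.0658) or diestrus library 1 (0.0911), and with only the 4 libraries of the pair (0.0757). Across stages the adjusted p was 0.0545, and Fgfr4 passed under 5 of 13 alternatives. With all libraries DESeq2 gave 0.0120 and edgeR without the filter 0.0198. It also passed without proestrus library 2, diestrus library 1 or diestrus library 2. Estrus against proestrus was -1.77 ± 0.57 (adjusted p = 0.0829) and passed under 3 of 14 alternatives. DESeq2 gave an adjusted p of 0.0476 with all libraries. The log2 fold changes without diestrus library 1 and library 2, which also passed, were -1.78 and -1.77.

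**Figure D3:**
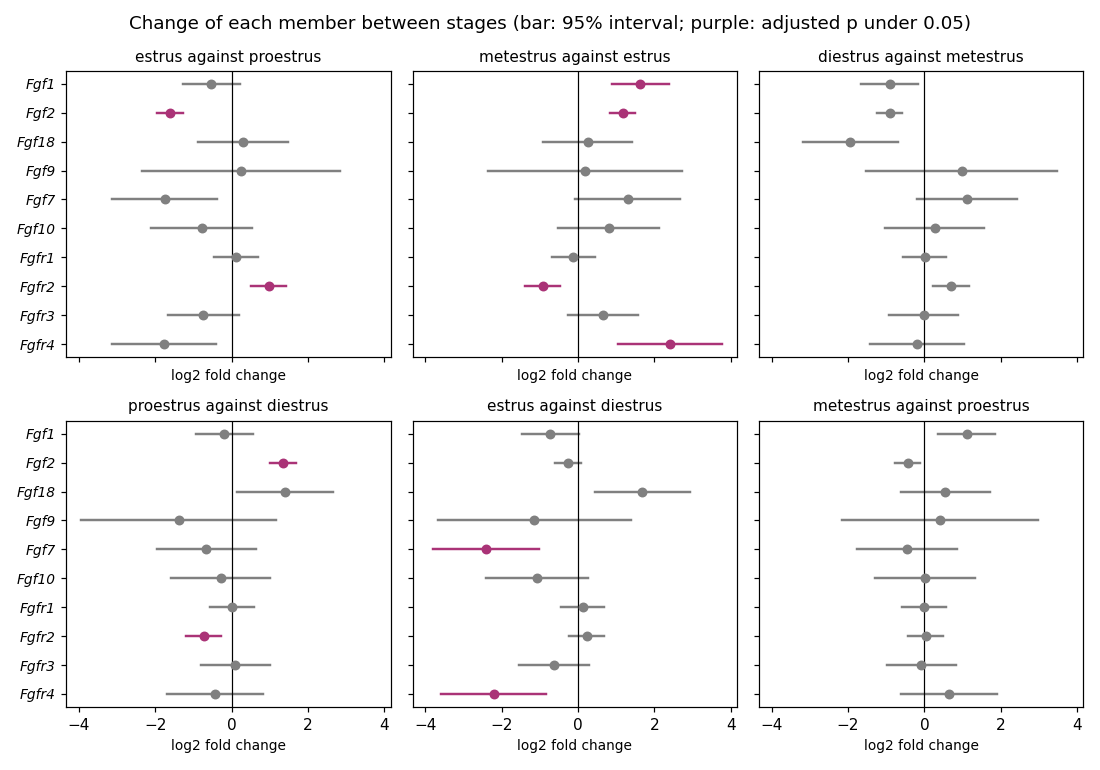
Log2 fold changes (x axis) of the 10 members (y axis) in the comparisons between stages, 1 panel for each, with 95% intervals as bars. Purple points passed the adjusted p threshold of 0.05. Fgf2 lies at -1.61 in estrus against proestrus and at 1.17 in metestrus against estrus, and Fgfr2 lies on the opposite side in both, at 0.97 and -0.93.

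In estrus against proestrus 2 of the 10 members changed, Fgf2 lower and Fgfr2 higher, where 15.1% of all genes did. In metestrus against estrus 4 members changed, with Fgf1, Fgf2 and Fgfr4 higher and Fgfr2 lower, against 36.2% of all genes. In diestrus against metestrus no member passed edgeR's test, 4 had an unadjusted p under 0.05, DESeq2 called 3, and 0.508% of all genes passed. In proestrus against diestrus 2 members changed, Fgf2 higher and Fgfr2 lower, against 22.4% of all genes. In estrus against diestrus 2 members, Fgf7 and Fgfr4, were lower, against 23.8% of all genes changed in either direction and 9.97% lower. In metestrus against proestrus no member passed edgeR's test, 2 had an unadjusted p under 0.05, DESeq2 called 1, and 16.9% of all genes passed. The 10 members had a median log2 fold change of -0.64 in estrus against proestrus and 0.73 in metestrus against estrus, where the medians of all genes tested were 0.0068 and -0.046. These comparisons share the estrus libraries.

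**Figure D4:**
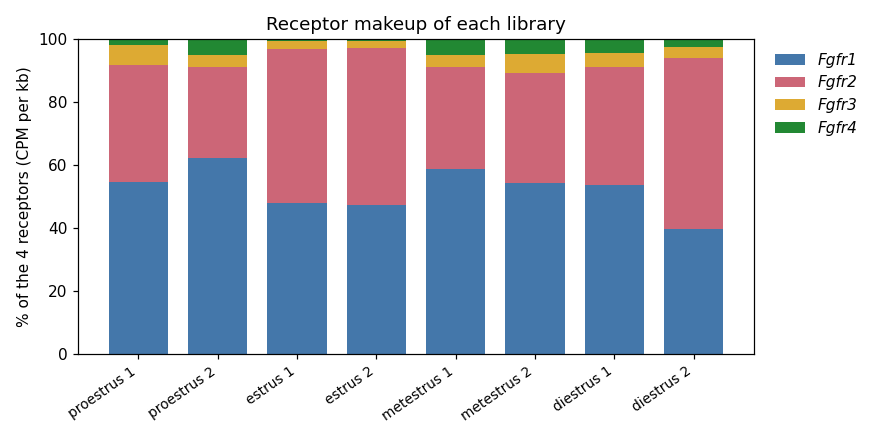
Share of each receptor gene in the summed receptor level (y axis, percent of CPM per kb of exon) in each library (x axis, in the order of the cycle). Fgfr2 makes up 48.6% and 49.8% in estrus against 37.2% and 29.0% in proestrus.

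Fgfr1 and Fgfr2 made up most of the receptor level in every library. By CPM per kb of exon, Fgfr1 held 54.6% and 62.0% in proestrus, then 48.0% and 47.3% in estrus, 58.6% and 54.2% in metestrus, and in diestrus 53.4% and 39.5%. Fgfr2 held 37.2% and 29.0% in proestrus, then 48.6% and 49.8% in estrus, 32.3% and 34.8% in metestrus, and in diestrus 37.6% and 54.6%. Its share was higher in both estrus libraries than in those of proestrus and metestrus, and the diestrus libraries lay on either side of the estrus values. Fgfr3 held 2.07% to 6.32% and Fgfr4 0.675% to 5.28%. These shares were not tested, and they depend on the exon length used.

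The stromal regulator Hand2 was highest in diestrus. It had 17.8 and 24.3 CPM in proestrus, 20.6 and 25.1 CPM in estrus, 39.0 and 35.2 CPM in metestrus and 52.2 and 79.8 CPM in diestrus (adjusted p across stages 0.00827). Both diestrus libraries lay above all others. Proestrus was lower than diestrus by a log2 fold change of -1.65 ± 0.25 (adjusted p = 0.00674, but 0.0505 without proestrus library 1 and 0.0557 with only the 4 libraries of the pair), and estrus was lower than diestrus by one of -1.53 ± 0.25 (adjusted p = 0.00853, but 0.0649 without estrus library 1). In metestrus against estrus Hand2 had a log2 fold change of 0.70 and did not pass the test (adjusted p = 0.0656, and 0.01 to 0.265 over the alternatives), while Fgf1 and Fgf2 were higher by 1.63 and 1.17. In diestrus against metestrus Hand2 had a log2 fold change of 0.83 (adjusted p = 0.181), and Fgf1, Fgf2 and Fgf18 had -0.91, -0.91 and -1.94, none of which passed the test. Mean levels of Fgf7, Fgf9 and Fgf10 went the other way, higher in diestrus than in metestrus. They did not pass either (adjusted p = 0.331, 0.653 and 0.828), and their diestrus libraries lay far apart. A link of Hand2 to any of these genes was not tested. In estrus against proestrus Hand2 had a log2 fold change of 0.12 (adjusted p = 0.771), while Fgf2 was lower by 1.61 on the log2 scale.

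Beyond the members, 87 other genes of the pathway were listed, of which 72 passed the filter and 32 changed across the stages, again against 39.1% of all genes. That count fell to between 16 and 19 when any 1 library of proestrus, estrus or metestrus was left out, and was 36 and 40 without diestrus library 1 and library 2. The share of all genes called moved too, to between 17% and 25.7% without a library of proestrus, estrus or metestrus, and to 49.4% and 52.3% without diestrus library 1 and library 2. Of 12 other secreted ligands only Fgf16 and Fgf20 passed the filter. Fgf20 had 23 and 10 counts in the estrus libraries (1.15 and 0.516 CPM) and 0 in the other 6. It passed the filter through estrus alone and so had to differ. Its estrus mean was 11.02-fold the level that 3 counts over the proestrus libraries would give, and 12.7-fold and 11.7-fold such floors for metestrus and diestrus. These folds leave out the counting error of the estrus mean itself. Fgf20 is among the genes called across the stages. That call was lost under 6 of 12 alternatives, DESeq2 included (adjusted p = 0.117). Fgf16 had 0.135 to 1.29 CPM, highest in metestrus. Of the FGF relatives that stay inside the cell, where they act on sodium channels, Fgf12 had 12.5 and 8.64 CPM in proestrus, 1.30 and 2.27 CPM in estrus, 4.64 and 3.85 CPM in metestrus and 1.80 and 2.57 CPM in diestrus (adjusted p across stages 0.00743). Fgf11 and Fgf13 did not pass.

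Among the co-receptors, 2 of 7 tested changed across the stages, against 39.1% of all genes. Flrt2, a membrane protein that binds FGF receptors, had 91.6 and 96.0 CPM in proestrus, 36.2 and 42.4 CPM in estrus, 62.2 and 65.4 CPM in metestrus and 36.9 and 38.2 CPM in diestrus. Estrus was lower than proestrus by a log2 fold change of -1.26 ± 0.11 (adjusted p = 0.00312), metestrus higher than estrus by 0.70 ± 0.11 (adjusted p = 0.00573) and proestrus higher than diestrus by 1.32 ± 0.11 (adjusted p = 0.00153). Fgfrl1, a receptor relative without a kinase, had 60.9 and 55.6 CPM in proestrus, 47.0 and 52.6 CPM in estrus, 32.5 and 29.99 CPM in metestrus and 24.5 and 28.4 CPM in diestrus, and proestrus was higher than diestrus by 1.14 ± 0.13 (adjusted p = 0.00296). Calls in metestrus against proestrus were lost under 4 of 14 alternatives for Flrt2 and 3 of 14 for Fgfrl1. The differences given above for both genes held under every alternative. Epithelial markers also summed to more in proestrus than in diestrus, and their part in these differences was not tested.

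**Figure D5:**
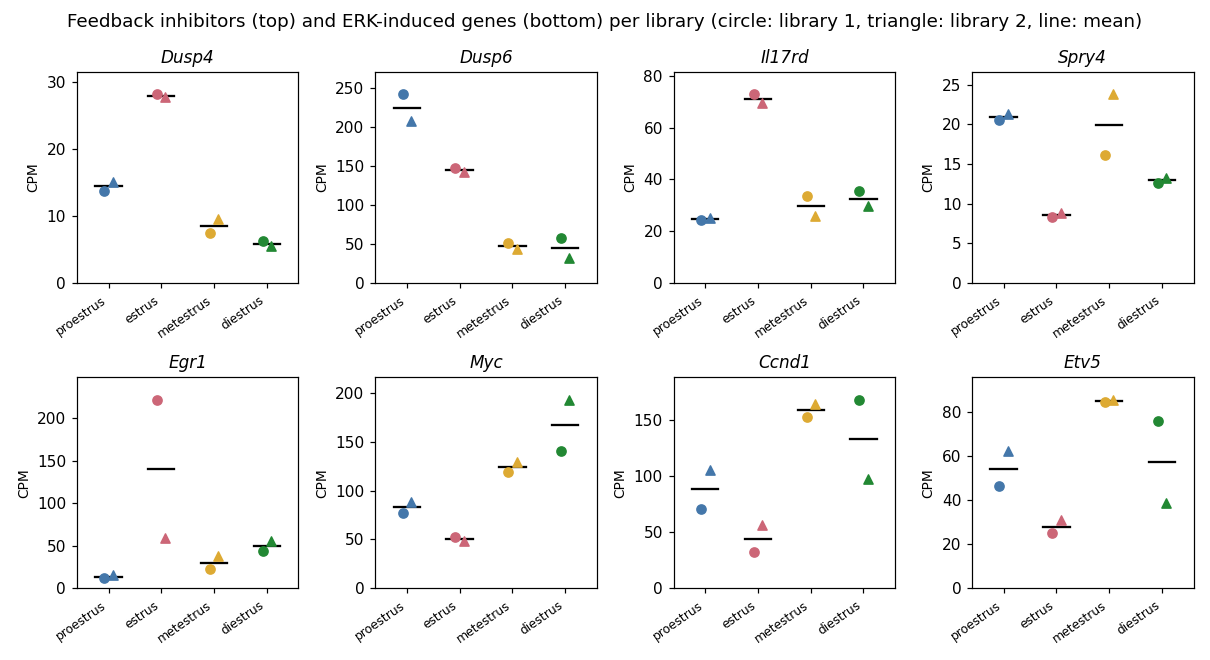
Levels in CPM (y axis, linear, from 0) of feedback inhibitors and target genes of the ERK cascade in the libraries of proestrus, estrus, metestrus and diestrus (x axis). Circles are library 1, triangles library 2 and lines the mean of a stage. Dusp4 and Il17rd are highest in estrus and Dusp6 is highest in proestrus, at 241 and 207 CPM.

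Feedback inhibitors, which are induced by FGF and other ERK signals and then damp them, were highest in different stages. Across the stages 6 of 10 tested changed, against 39.1% of all genes, and between 4 and 6 with 1 library left out, against 17% to 52.3%. In metestrus against estrus 5 of the 10 were lower, against 19.5% of all genes, and 1 was higher, against 16.7%. Without metestrus library 2, 2 were lower, against 6.79% of all genes. Without estrus library 1 and without metestrus library 1, 3 were lower, against 8.87% and 8.02%. In estrus against diestrus 4 were higher, against 13.9% of all genes, and none passed in the other direction. The 10 epithelial markers summed to 4218 and 3526 CPM in estrus against 915 and 1378 CPM in diestrus, with 7 called higher and 1 lower, and to 1333 and 1258 CPM in metestrus against 4218 and 3526 CPM in estrus. The 7 immune markers summed to 470 and 507 CPM in estrus against 171 and 186 CPM in diestrus, with 3 called higher. The part of these cells in the group's differences was not tested. Il17rd, a membrane inhibitor of the pathway, had 24.5 and 25.1 CPM in proestrus, 72.8 and 69.5 CPM in estrus, 33.7 and 25.8 CPM in metestrus and 35.4 and 29.8 CPM in diestrus. Estrus was higher than proestrus by 1.52 ± 0.16 on the log2 scale (adjusted p = 0.00447), and metestrus was lower than estrus by a log2 fold change of -1.26 ± 0.16 (adjusted p = 0.00309). Dusp4, a nuclear ERK phosphatase, had 13.7 and 15.0 CPM in proestrus, 28.1 and 27.8 CPM in estrus, 7.50 and 9.54 CPM in metestrus and 6.21 and 5.45 CPM in diestrus, and estrus was higher than diestrus by 2.26 ± 0.18 (adjusted p = 0.00135). The cytoplasmic ERK phosphatase Dusp6 had 241 and 207 CPM in proestrus, 148 and 142 CPM in estrus, 50.9 and 42.8 CPM in metestrus and 57.9 and 32.5 CPM in diestrus, and proestrus was higher than diestrus by 2.31 ± 0.27 (adjusted p = 0.00326). Spry4, a Sprouty inhibitor of ERK activation, had 20.6 and 21.3 CPM in proestrus, 8.30 and 8.78 CPM in estrus, 16.2 and 23.8 CPM in metestrus and 12.6 and 13.3 CPM in diestrus. Metestrus was higher than estrus for Spry4 by 1.23 ± 0.21 (adjusted p = 0.00672). The calls named here for these 4 genes held under every alternative, but other called pairs did not. Estrus against proestrus was lost under 4 of 14 alternatives for Dusp4 and under 4 of 14 for Spry4.

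Transcription factors and the cyclin that ERK signals induce had their highest levels in different stages. Of 6 tested, 4 changed across the stages, against 39.1% of all genes, and 1 to 5 with 1 library left out, against 17% to 52.3%. Myc had 76.9 and 88.8 CPM in proestrus, 52.5 and 48.4 CPM in estrus, 119.6 and 129.7 CPM in metestrus and 141 and 193 CPM in diestrus. Metestrus was higher than estrus by 1.30 ± 0.17 (adjusted p = 0.00342) and estrus was lower than diestrus by a log2 fold change of -1.73 ± 0.17 (adjusted p = 0.00233). Egr1, an immediate early gene, had 222 and 58.7 CPM in estrus against 12.5 and 14.9 in proestrus, and estrus was higher by 3.36 ± 0.62 (adjusted p = 0.0199), a call lost without proestrus library 1 (0.0949) or library 2 (0.105). Etv5 and Ccnd1 were higher in metestrus than in estrus, by 1.61 ± 0.32 (adjusted p = 0.011) and 1.85 ± 0.37 (adjusted p = 0.0108). The Etv5 call was lost without estrus library 1 (0.0761), metestrus library 1 (0.0531) or metestrus library 2 (0.0591), and the Ccnd1 call without estrus library 1 (0.0621) or metestrus library 2 (0.0598). Their levels were 84.5 and 85.5 CPM for Etv5 in metestrus against 24.8 and 30.8 in estrus, and 153 and 165 CPM for Ccnd1 in metestrus against 31.9 and 56.1 in estrus.

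Adaptors and kinases between receptor and ERK had 7 of 19 tested genes changed across the stages, against 39.1% of all genes. The count was 1 or 2 when any library of proestrus, estrus or metestrus was left out, against 17% to 25.7% of all genes. The kinase gene Map2k1, which activates ERK, had 169 and 131 CPM in proestrus, 90.6 and 81.2 CPM in estrus, 83.4 and 78.2 CPM in metestrus and 67.5 and 55.9 CPM in diestrus. The proestrus libraries lay above all others, and proestrus was higher than diestrus by 1.28 ± 0.16 (adjusted p = 0.0041). Gab1, a docking protein of the receptor complex, had 36.1 and 34.5 CPM in proestrus, 56.9 and 56.4 CPM in estrus, 30.3 and 24.0 CPM in metestrus and 52.8 and 40.7 CPM in diestrus. Metestrus was lower than estrus by a log2 fold change of -1.06 ± 0.17 (adjusted p = 0.00541). Both differences held under every alternative, whereas estrus against proestrus was lost under 5 of 14 for Map2k1 and 6 of 14 for Gab1. Plcg1 and Hras of the same list also changed across the stages (adjusted p = 0.0232 and 0.0243). Those calls were lost under 6 and 5 of 13 alternatives. Epithelial markers also summed to more in proestrus than in diestrus and to more in estrus than in metestrus. Their part in the differences of this list was not tested.

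Heparan sulfate proteoglycans and the enzymes that build their chains, which FGFs need to bind their receptors, had 9 of 24 tested genes changed across the stages, against 39.1% of all genes. The count was 4 to 6 when a library of proestrus, estrus or metestrus was left out, against 17% to 25.7% of all genes. The glypicans Gpc3 and Gpc6, which carry heparan sulfate at the cell surface, were high in metestrus and diestrus. Gpc3 had 10.6 and 15.5 CPM in proestrus, 12.8 and 14.6 CPM in estrus, 46.2 and 50.6 CPM in metestrus and 62.1 and 62.5 CPM in diestrus, and metestrus was higher than estrus by 1.83 ± 0.19 (adjusted p = 0.00198). Gpc6 had 3.59 and 5.66 CPM in proestrus, 7.85 and 9.14 CPM in estrus, 21.6 and 28.9 CPM in metestrus and 38.9 and 43.8 CPM in diestrus, and proestrus was lower than diestrus by a log2 fold change of -3.16 ± 0.27 (adjusted p = 0.00153). Sdc1, an epithelial syndecan, was lower in estrus than in proestrus, with 161 and 135 CPM in estrus against 347 and 345 in proestrus (log2 fold change -1.23 ± 0.13, adjusted p = 0.00425). The sulfotransferase Hs6st1, which adds sulfate groups that FGFs recognise, had 135 and 131 CPM in estrus against 60.1 and 53.3 in diestrus, and estrus was higher by 1.23 ± 0.13 (adjusted p = 0.00276). These 4 differences held under every alternative. Other called pairs did not: metestrus against proestrus was lost under 4 of 14 alternatives for Sdc1 and 6 of 14 for Hs6st1. Epithelial markers summed to 5393 and 4408 CPM in proestrus and 4218 and 3526 CPM in estrus. In metestrus they summed to 1333 and 1258 CPM and in diestrus to 915 and 1378 CPM. Their part in the differences of this list was not tested.

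For the ligand and the receptor with the smallest p across the stages, the genes of most similar course were found by the root mean square difference of centred log2 CPM over the 8 libraries, among 11874 protein-coding genes. Plod2 at 0.174, Raly at 0.187 and Triobp at 0.19 lay closest to Fgf2. Mean levels of Plod2 were 246.9 CPM for proestrus, 65.9 for estrus, 157 for metestrus and 78.9 for diestrus. Rcsd1 at 0.168, and Gramd1b and Gpsm3 at 0.184 each, lay closest to Fgfr2. Those of Rcsd1 were 18.3 CPM for proestrus, 41.0 for estrus, 17.5 for metestrus and 30.9 for diestrus.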

How the data were processed

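RNA of whole uterus was measured by sequencing in 8 libraries, 2 per stage of the estrous cycle, from stranded libraries of polyadenylated RNA, per the labels. The deposited values are raw counts per gene, which the authors made from aligned reads without normalisation. The submitters' processing notes name STAR, featureCounts of Subread and GRCm38 (mm10). Their versions, the annotation and the strand setting: not given in the sources used here. Totals of 17863546 to 21896786 counts limit the precision of members with few counts, and floors cover counting error only.

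Symbols and coordinates came from GENCODE M21, which held 52058 of 52308 identifiers. The remaining 250 took no more than 0.0107% of any library. Groups followed the stage in the labels. The test was that of edgeR 4.0.16 (R 4.3.3): filterByExpr left 18114 genes, TMM factors lay between 0.8975 and 1.111, and the quasi-likelihood fit used all libraries, with a term for each stage (4 residual and 2.698 prior degrees of freedom). The stages were tested together and in 6 pairs by two-sided F tests, with Benjamini-Hochberg adjustment over all genes tested and a threshold of 0.05. The SE is the log2 fold change divided by the square root of F, and intervals are at 95%. Alternatives were DESeq2 1.42.0, its size factors, other filters, a replicate block, the 4 libraries of a pair alone and each library left out.

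The members and the gene lists were chosen with earlier results of these data known. All members were named, with up to 4 tested genes of each pathway list that had the smallest p across stages, and the 3 protein-coding genes with a mean of 5 CPM or more closest in course to the ligand and to the receptor with the smallest p. For Fgf20 3 counts over the libraries of a stage served as the floor. Gene lengths are unions of exons. Promoters are from RefSeq GRCm38.p6.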

Additional observations from a re-analysis of the deposited data

How the results depend on the processing

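No call of a member or named gene changed sign under any alternative. The 3 members that changed across the stages were 5 with DESeq2, where 47.1% of all genes were called, 5 without the filter (24.4%), and 1 to 7 with 1 library left out (17% to 52.3%). In estrus against proestrus 2 became 4 with DESeq2 (20.6% of all genes), and 1 to 4 with 1 library left out (2.53% to 26.3%). In metestrus against estrus 4 ranged over 1 to 5 with 1 library left out (12.1% to 45.5%). In diestrus against metestrus 0 became 3 with DESeq2 (5.48%) and 1 without the filter (1.44%), and 0 to 3 with 1 library left out (0% to 11%). In proestrus against diestrus 2 became 1 with the 4 libraries of the pair alone (5.57%), and 1 to 4 with 1 library left out (6.88% to 25.7%). In estrus against diestrus 2 became 3 with DESeq2 (27.9%) and without the filter (14.6%), 0 with the pair alone (9.67%), and 0 to 5 with 1 library left out (7.59% to 28.6%). In metestrus against proestrus 0 became 1 with DESeq2 (22.5%) and without the filter (10.4%), 2 with the pair alone (25%), and 0 to 2 with 1 library left out (0.0828% to 27.9%). The count of other pathway genes ranged over 16 to 40 with 1 library left out. Of 970 member results, 882 kept their side of the threshold, 42 lost it and 46 gained it. Where 1 library was left out of a stage, the lone library was assumed to vary like the others. The causes were not tested.

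Replicate numbers only name libraries here: correlations of their deviations lay between -0.0926 and 0.145. With the replicate block, the count across stages was 3, in estrus against proestrus 2, in metestrus against estrus 4, in diestrus against metestrus and metestrus against proestrus 0, and in proestrus against diestrus and estrus against diestrus 1 each. The calls that the block ended were those of Fgfr2 in proestrus against diestrus (adjusted p = 0.0534) and Fgfr4 in estrus against diestrus (adjusted p = 0.0542). The block gave 29 of the other pathway genes.

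DESeq2 size factors changed the CPM of a library by a ratio of 0.9934 or more. Depth limits Fgf7, Fgf9, Fgf18 and Fgfr4, which had libraries with 10 to 45 counts.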
